A study of Mus musculus with 26 samples.

Results

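The cadherin switch and mesenchymal transition genes are 10 genes chosen by name from the 55291 genes counted in each library: Cdh1, Cdh3 and Epcam, which encode adhesion proteins of epithelial cells, Cdh2 and Vim, which mark neural and mesenchymal cells, and the transcription factors Snai1, Snai2, Zeb1, Zeb2 and Twist1. All 10 were counted in all 26 libraries. All 10 passed the low-count filter in the CTCF rescue lines, and 9 did in the truncation lines, where Snai2 was too low to be tested. No measured value entered the rule, which lists the genes by name, but they were chosen with earlier results of these data known.

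E-cadherin (Cdh1), P-cadherin (Cdh3) and N-cadherin (Cdh2) are calcium-dependent adhesion proteins that bind the same cadherin on the neighbouring cell and are tied to actin through the catenins, and EpCAM is a further adhesion protein of epithelia and pluripotent cells. In an epithelial-to-mesenchymal transition (EMT), factors of the Snail, Zeb and Twist families act on genes such as Cdh1, partly by binding E-box sequences, and cells gain the intermediate filament vimentin (Vim). When pluripotent cells become neuroepithelium in the embryo, E-cadherin gives way to N-cadherin, while the cells remain an epithelium.

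The genes were followed in mouse embryonic stem cells (ESCs) of the E14 (ES-E14TG2a) line and in neural progenitor cells (NPCs) made from them by 2 days on laminin in medium without the factors that hold ESCs pluripotent. In the rescue lines, both endogenous alleles of CTCF, the protein that anchors chromatin loops, carried an auxin degron with eGFP, the auxin receptor OsTir1(F74G) sat in Rosa26 and a dox-inducible Flag-Halo-tagged CTCF sat in the Tigre locus, either WT or with a deletion in its first zinc finger, an RNA binding region (ΔZF1, called the ZF1 mutant in the labels). All 4 rescue groups, the WT line as ESC-WT and NPC-WT and the ΔZF1 line as ESC-ΔZF1 and NPC-ΔZF1 (n = 2 each), had received 1 µM 5-Ph-IAA and 1 µg/ml dox for 24 hours, so that endogenous CTCF was degraded in the controls too. The other 6 groups (n = 3 each) were untreated E14 WT, Podxl pA and Grb10 pA cells as ESCs and as NPCs, in which pA marks an eGFP and polyadenylation cassette placed homozygously after the first coding exon, to truncate the Podxl or Grb10 RNA. Each rescue line was a clone, so the CTCF protein expressed and the clone cannot be told apart. The Podxl pA and Grb10 pA cells were clones too, so the truncation and the clone cannot be told apart either. The study calls its replicates biological, whether each was a separate culture or differentiation is not given in the sources used here, and the p-values measure the spread between these libraries. In bulk RNA, fewer cells of a type and less RNA per cell cannot be told apart.

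The start regions of 3 of the genes are shown because their levels carried the results below: Epcam, which rose on differentiation in every line, and Vim and Snai1, which were higher in NPC-ΔZF1. Each run is from RefSeq on GRCm38.p6 and holds 250 bases before and 50 bases after the start, 5′ to 3′ on the strand of the gene. Capitals mark the E-box CAGGTG, or CACCTG where it lies on the other strand, the sequence to which Snail and Zeb factors are known to bind.
Epcam, chr17:87635729-87636028, plus strand: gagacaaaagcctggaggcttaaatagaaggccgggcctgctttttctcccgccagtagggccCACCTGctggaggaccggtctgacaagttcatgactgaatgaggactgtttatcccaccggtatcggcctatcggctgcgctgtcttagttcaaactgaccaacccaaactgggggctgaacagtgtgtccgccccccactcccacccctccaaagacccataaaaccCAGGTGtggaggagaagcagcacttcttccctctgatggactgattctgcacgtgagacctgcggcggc
Snai1, chr2:167537945-167538244, plus strand: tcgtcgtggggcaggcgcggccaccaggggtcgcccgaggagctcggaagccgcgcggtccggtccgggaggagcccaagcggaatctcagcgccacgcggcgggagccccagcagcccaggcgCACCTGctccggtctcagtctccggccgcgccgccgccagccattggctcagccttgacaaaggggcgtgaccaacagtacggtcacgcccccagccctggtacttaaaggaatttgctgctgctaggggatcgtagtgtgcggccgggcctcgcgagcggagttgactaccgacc
Vim, chr2:13574061-13574360, plus strand: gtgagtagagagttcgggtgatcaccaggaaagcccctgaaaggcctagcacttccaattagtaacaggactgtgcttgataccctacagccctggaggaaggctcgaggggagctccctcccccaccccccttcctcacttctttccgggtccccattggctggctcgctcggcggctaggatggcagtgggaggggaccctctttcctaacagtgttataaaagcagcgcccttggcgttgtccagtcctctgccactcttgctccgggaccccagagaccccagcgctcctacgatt
The Epcam region held the E-box 2 times, with first bases at -187 and -19 from the start, the Snai1 region held it 1 time, at -126, and the Vim region did not hold it. It was also not found in the matching regions of Twist1 and of the 4 listed starts of Zeb2. Of all 32851 start regions of this length, 6640 (20.2%) held it, so these matches are a description of the letters only. Regions were matched for 5 of the 10 genes, and Cdh1, Cdh2, Cdh3, Snai2 and Zeb1 had no match.

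The total count of a library lay between 6425179 and 28730435 in the rescue lines and between 1907505 and 8845087 in the truncation lines, so that the low factors are measured less precisely in the latter. Values below are CPM, counts scaled to library size, after trimmed mean (TMM) scaling within each of the 2 count tables, which were normalized separately, and levels are compared within a table. Replicate pairs were compared by a chi-square per gene on raw counts, which grows with depth, so pairs of unlike depth cannot be ranked by it. The NPC-WT pair had 63.1, against 2.92 in the deeper NPC-ΔZF1 pair, 6.37 in ESC-WT and 4.94 in ESC-ΔZF1. In the shallower truncation lines the values ran from 1.69 to 27.6. The largest there were ESC E14 WT replicates 1 and 2, at 27.6, and ESC Grb10 pA replicates 1 and 2, at 22.4. Podxl was at 6.44 ± 5.58 CPM in ESC Podxl pA against 31.7 ± 4.63 in ESC E14 WT and at 22.5 ± 1.72 in NPC Podxl pA against 246 ± 13.6 in NPC E14 WT (SD, n = 3). Grb10 was at 33.1 ± 2.52 CPM in ESC Grb10 pA against 123.5 ± 5.1 in ESC E14 WT and at 54.6 ± 4.14 in NPC Grb10 pA against 795 ± 23.4 in NPC E14 WT. Of 9 pluripotency markers, 8 or 9 fell in NPCs of every line. Of the neural markers, Sox1, an early neural factor, rose 3.2-fold in NPC-WT and 16.1-fold in NPC E14 WT, and the summed level of the 8 markers other than Sox2 was higher in every NPC library than in every ESC library of its table (107 to 146 CPM against 41.8 to 53.1 CPM in the rescue lines, and 51.3 to 135.5 CPM against 24.2 to 44.2 CPM in the truncation lines). Sox2, which is also a pluripotency factor, was lower in all NPC groups, and with it the sum of all 9 ran the other way (132 to 177 CPM in NPCs against 279.5 to 322 CPM in ESCs of the rescue lines). Leaving out Sox2 was chosen after the values were seen. Gene by gene, 3 neural markers rose and 1 fell of 7 tested in NPC-WT, and 3 rose and 1 fell of 6 in NPC E14 WT. The sum in NPC-WT was mostly Nes, at 98.3 CPM on average. The means of Sox3, Pax6 and Sox21 were lower in NPC-WT than in ESC-WT. Hes5 and Fabp7 were at 0 or below 1 CPM in every library. Extraembryonic endoderm markers also rose on differentiation, 10 of 10 tested in each of E14 WT, Podxl pA and Grb10 pA. In the rescue lines, 8 of 12 rose in WT and 12 of 12 in ΔZF1. Their summed level was 724 to 979.9 CPM in NPC E14 WT against 83.95 to 103.4 CPM in ESC E14 WT. Their part in the changes of the 10 genes on differentiation was not tested. The lists of markers and of related genes used here were chosen with earlier results of these data known.

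The 10 genes spanned a wide range of levels. Per length, in CPM per kilobase of exon, the group means of Cdh1 ran from 97.8 to 214, those of Vim from 24.5 to 133 and those of Epcam from 13.5 to 102. Cdh1 was thus the most abundant of the 10 in all 10 groups except NPC Grb10 pA, where Epcam stood at 102 and Cdh1 at 97.8. With the longest transcript as the length, Vim also stood above Cdh1 in NPC-ΔZF1, at 215 against 139, and Epcam above Cdh1 in NPC Grb10 pA, at 109.9 against 101. Group means of Cdh3 ran from 1.52 to 9.95 and those of Cdh2 from 0.212 to 4.69 on this scale. Among the transcription factors, Snai1 ran from 0.351 to 5.58, Twist1 from 1.15 to 4.21, Zeb1 from 0.681 to 2.89, Zeb2 from 0.101 to 1.23 and Snai2 from 0.256 to 0.885. Snai1 had no count in replicate 3 of ESC Podxl pA, which allows up to 1.545 CPM (3 counts, counting error only).

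**Figure D1:**
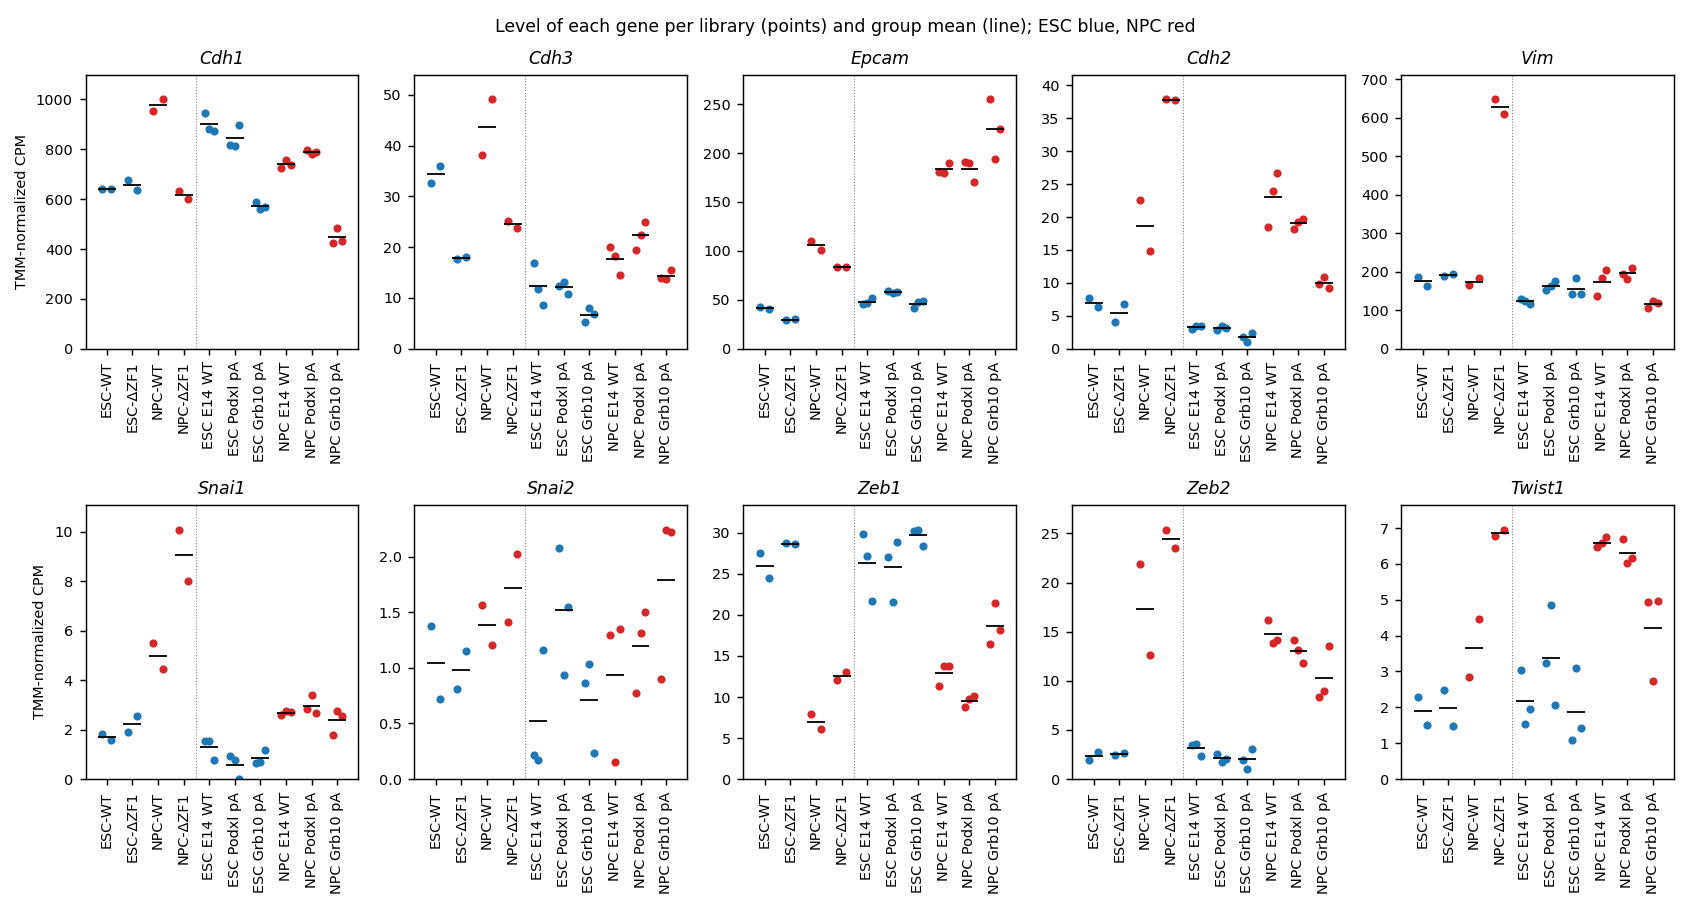
TMM-normalized CPM (linear axis from 0) of each of the 10 genes in each of the 26 libraries (points) with the mean of each group (line). The dotted line separates the rescue lines from the truncation lines, which were normalized separately. Vim in NPC-ΔZF1, at 611 and 648 CPM, lies above every other rescue library for that gene.

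Differentiation in the control lines addressed which of these genes change between ESCs and NPCs at 2 days. N-cadherin and EpCAM RNA rose together in every line, and the Zeb factors moved in opposite directions, with Zeb1 falling and Zeb2 rising. E-cadherin RNA was largely retained, except that it rose in the WT rescue line. In E14 WT, 5 of 9 genes tested rose, against 16.5% of all genes tested, and Zeb1 fell, with 16.3% of all genes falling. A gene was taken as dysregulated, here also as having risen or fallen, at a Benjamini-Hochberg adjusted p of at most 0.05 in edgeR's quasi-likelihood F test with a log2 fold change whose size was 0.5 or more.

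Among the adhesion genes, Cdh2 (chr18:16588877-16809246, minus strand, GRCm38) was at 3.05, 3.43 and 3.49 CPM in the 3 libraries of ESC E14 WT and at 18.4, 24 and 26.6 CPM in those of NPC E14 WT. The groups did not overlap, and the log2 fold change was 2.80 ± 0.20 (SE, adjusted p = 8.18e-12). Epcam (chr17:87635979-87651129) was at 46.2, 46.4 and 51.6 CPM in ESC E14 WT and at 181, 179.5 and 190.1 CPM in NPC E14 WT, a log2 fold change of 1.94 ± 0.10 (adjusted p = 3.85e-15). Every NPC library lay above every ESC library for both genes in all 5 lines. Cdh1 (chr8:106603351-106670246) was at 947, 881.5 and 874 CPM in ESC E14 WT and at 724, 756 and 739 CPM in NPC E14 WT. These groups did not overlap either, but the log2 fold change of -0.28 ± 0.07 (adjusted p = 0.00167) was below the fold cutoff. Cdh3, the neighbour of Cdh1 (chr8:106510891-106557297), was at 12.4 ± 4.15 CPM in ESC E14 WT and 17.6 ± 2.84 in NPC E14 WT (SD, n = 3), and its groups overlapped (log2 fold change 0.47 ± 0.19, adjusted p = 0.0458).

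Vim rose by 0.50 ± 0.11 on the log2 scale in E14 WT (adjusted p = 0.000747), at the fold cutoff, from 117 to 129 CPM in ESCs to 137, 183 and 204 CPM in NPCs. Without ESC E14 WT replicate 3, NPC E14 WT replicate 2 or NPC E14 WT replicate 3, the value was 0.48, 0.46 or 0.41, below the cutoff. Among the factors, Zeb1 (chr18:5591860-5775467) was at 29.9, 27.2 and 21.8 CPM in ESC E14 WT and at 11.3, 13.8 and 13.8 CPM in NPC E14 WT (log2 fold change -1.03 ± 0.16, adjusted p = 6.28e-06). Zeb2 (chr2:44983632-45117395, minus strand) was at 3.49, 3.6 and 2.33 CPM in ESC E14 WT and at 16.2, 13.9 and 14.2 CPM in NPC E14 WT (2.15 ± 0.25, adjusted p = 8.77e-08). The groups did not overlap for either gene, and the opposite changes narrowed the gap between them. Exons of Zeb1 overlap Gm10125 by 198 bases on the opposite strand and exons of Zeb2 overlap Gm27761, Mir5129 and Zeb2os by 657 bases, and reads were counted without strand, so a share of their counts could come from these genes. Twist1 (chr12:33957671-33959829) rose by 1.60 ± 0.34 on the log2 scale (adjusted p = 0.000333), from 1.54 to 3.05 CPM in ESCs to 6.47 to 6.74 CPM in NPCs. Snai1 (chr2:167538195-167542814) was at 1.28 ± 0.437 CPM in ESCs and 2.68 ± 0.082 CPM in NPCs (SD, n = 3), without overlap but just above the threshold (0.96 ± 0.40, adjusted p = 0.0538), on 2 to 18 counts per library.

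The other lines gave the same direction for Cdh2, Epcam, Zeb1 and Zeb2. In the truncation lines, 6 of 9 genes rose in Podxl pA (17.1% of all genes tested rose) and 6 of 9 in Grb10 pA (17.2%), and Zeb1 alone of the 9 fell in each (14.7% and 17.4%). Cdh3 passed the test in these, with log2 fold changes of 0.86 ± 0.18 in Podxl pA and 1.14 ± 0.21 in Grb10 pA, and so did Snai1, at 2.03 ± 0.45 and 1.39 ± 0.45. Without ESC Grb10 pA replicate 1, the change of Snai1 in Grb10 pA was 1.19 (adjusted p = 0.065). In the rescue lines, 6 of 10 genes rose in WT (22% of all genes tested) and 6 of 10 in ΔZF1 (20.4%), with Zeb1 again the gene that fell (19.9% and 16.9% of all genes). Across the 5 lines, Cdh2 rose by 1.47 to 2.80 on the log2 scale, Epcam by 1.34 to 2.29 and Zeb2 by 2.15 to 3.25, and Zeb1 changed by -1.86 to -0.69. Twist1 passed in all 5 lines, but its groups overlapped in Grb10 pA, at 1.08 to 3.11 CPM in ESCs and 2.74 to 4.96 CPM in NPCs. In 2 other lines, WT rescue and Podxl pA, it passed by little, and not in DESeq2 (adjusted p = 0.0742 and 0.108). In the WT rescue line its log2 fold change of 0.98 ± 0.36 (adjusted p = 0.046) lost the call without ESC-WT replicate 1, ESC-WT replicate 2 or NPC-WT replicate 2 (0.62 to 1.23, adjusted p from 0.0582 to 0.375). In Podxl pA its value of 0.73 ± 0.30 (adjusted p = 0.0479) kept the call only without ESC Podxl pA replicate 2, with adjusted p from 0.0747 to 0.153 without each other library. The lines share no libraries in these comparisons, and whether they differ from each other beyond the ΔZF1 and pA effects given below was not tested.

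Cdh1 did not follow one direction. It was at 640.7 and 639.5 CPM in ESC-WT and at 954 and 1000 CPM in NPC-WT, so that it rose by 0.61 ± 0.09 on the log2 scale (adjusted p = 0.000523), whereas the value was -0.09 ± 0.09 between ESC-ΔZF1 and NPC-ΔZF1, -0.09 ± 0.07 in Podxl pA and -0.36 ± 0.07 in Grb10 pA. Vim was likewise uneven, at 186.5 and 164 CPM in ESC-WT and 166 and 184 CPM in NPC-WT, which overlapped (0.00 ± 0.11 on the log2 scale), at 0.27 ± 0.11 in Podxl pA and at -0.43 ± 0.11 in Grb10 pA, whereas it rose by 1.72 ± 0.11 between ESC-ΔZF1 and NPC-ΔZF1 (adjusted p = 1.48e-06). All 7 surface ectoderm markers rose in NPC-WT, where Cdh1 rose, and also in NPC-ΔZF1, where Cdh1 did not. Their summed level was 2893 to 4209 CPM in NPC-WT, 1192 to 1249 CPM in NPC-ΔZF1 and 169.5 to 247 CPM in ESC-WT. In the NPCs of the truncation lines, which were normalized separately, it was 133 to 168 CPM. Krt8, a keratin of simple epithelia, stood at 1177 ± 296 CPM in NPC-WT (SD, n = 2), and Dlx5 and Trp63 stood at 1.45 ± 0.256 and 2.68 ± 1.72 CPM. The part of these markers in the level of Cdh1 was not tested.

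**Figure D2:**
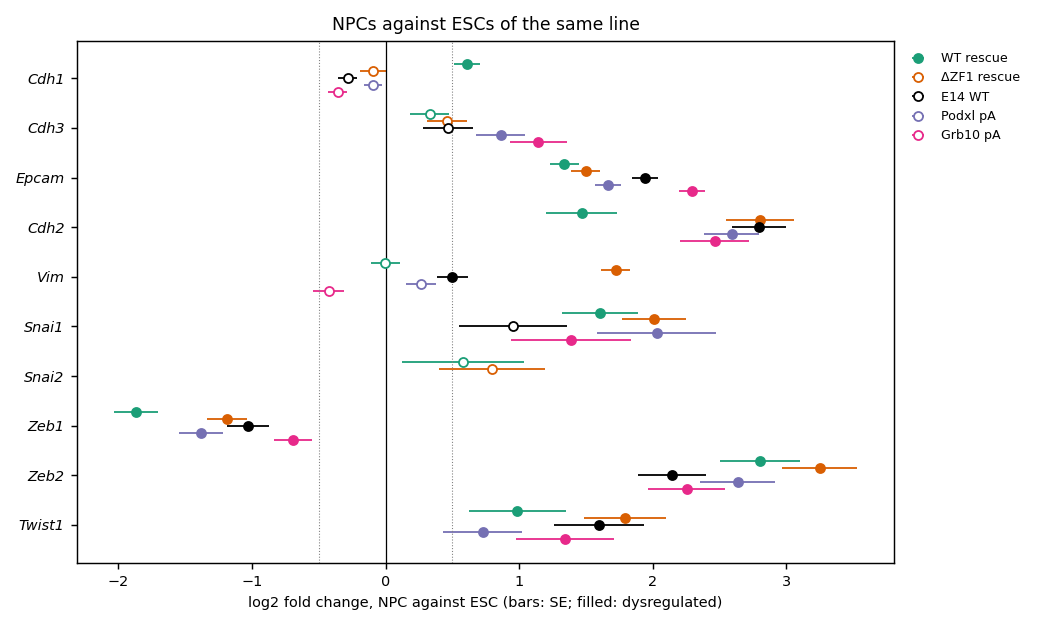
Log2 fold change of each gene between NPCs and ESCs of the same line (horizontal axis, bars are SE) in the WT and ΔZF1 rescue lines, E14 WT, Podxl pA and Grb10 pA, with filled points for dysregulated genes and dotted lines at 0.5 in either direction. Cdh2, Epcam and Zeb2 lie to the right and Zeb1 to the left in all 5 lines, whereas Cdh1 runs from -0.36 to 0.61. Snai2 was not tested in the truncation lines.

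The ratio of Cdh2 to Cdh1 within a library, taken per length, put the cadherin exchange on 1 scale. It was 0.183% to 0.227% in ESC E14 WT and 1.445% to 2.04% in NPC E14 WT, so Cdh1 remained the main cadherin RNA of the pair in NPCs. In the rescue lines it was 0.561% and 0.676% in ESC-WT, 0.3385% and 0.601% in ESC-ΔZF1, 0.843% and 1.34% in NPC-WT and 3.395% and 3.57% in NPC-ΔZF1. Both NPC-ΔZF1 libraries lay above every other rescue library. The ratio of Zeb2 to Zeb1, chosen after the values were seen, was 5.52% to 6.8% in ESC E14 WT and 52.05% to 73.5% in NPC E14 WT. It was 3.72% and 5.89% in ESC-WT and 107% and 143% in NPC-WT, and 92.4% and 108% in NPC-ΔZF1, which overlapped NPC-WT.

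**Figure D3:**
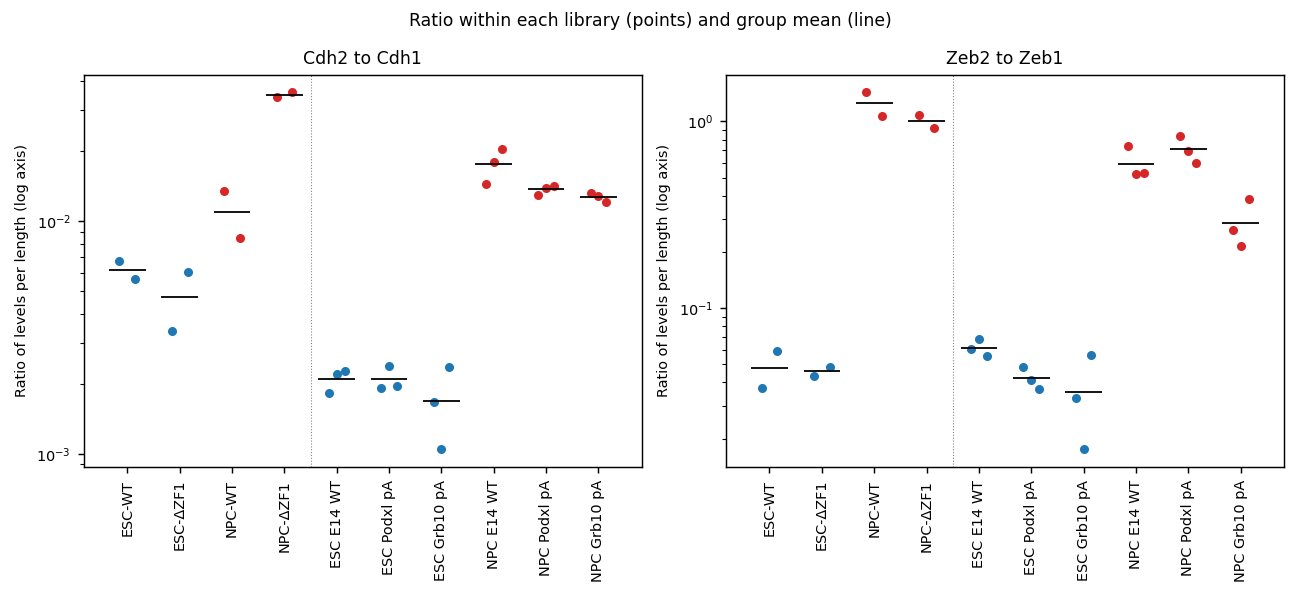
Ratio of Cdh2 to Cdh1 (left) and of Zeb2 to Zeb1 (right) per length in each library (points, log axis) with the group mean (line). Every NPC library lies above every ESC library of its table in both panels, and NPC-ΔZF1 has the highest ratio of Cdh2 to Cdh1 of the rescue groups, 3.395% and 3.57%.

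Related genes of adhesion changed on differentiation as follows. Of 16 other type I and II cadherins, 7 were tested in the rescue lines, and all 7 rose in both WT and ΔZF1, among them Cdh6, a type II cadherin, by 2.44 ± 0.28 and 4.89 ± 0.22 on the log2 scale. In each of the truncation lines and E14 WT, 4 of 5 tested rose. Of 20 genes of tight junctions and desmosomes, 15 rose and 1 fell in NPC-WT, and 10 rose and 1 fell in NPC E14 WT, with median log2 fold changes of 1.5 and 0.64 against 0.01 and -0.01 over all genes tested. Cldn6, a claudin, rose 9.65-fold in NPC-WT and 4.69-fold in NPC E14 WT. Of the 12 catenins and junction scaffold genes, 8 and 9 were not dysregulated in these comparisons, and Nectin1, an adhesion receptor of the immunoglobulin family, fell in all 5 lines.

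Epithelial regulators changed in both directions. Of 12 epithelial splicing and transcription factors, 10 rose and 1 fell of 11 tested in NPC-WT, and 4 rose and 2 fell of 9 tested in NPC E14 WT. In Podxl pA 6 rose and 2 fell, and in Grb10 pA 3 rose and 3 fell, with a median log2 fold change of -0.30. Grhl2, an epithelial transcription factor, rose 9.94-fold in NPC-WT and 14.8-fold in NPC E14 WT, and Esrp1, an epithelial splicing regulator, rose 6.35-fold and 26.9-fold. In contrast, Elf3 and Klf5 fell in NPC E14 WT. Of 24 genes of mesenchymal matrix and cytoskeleton, 16 rose and 2 fell of 22 tested in NPC-WT, among them the collagen gene Col1a2 by 31.4-fold, whereas 5 rose and 4 fell of 17 tested in NPC E14 WT, with a median of 0.10. Mmp2, a matrix protease, rose 6.28-fold there and Fn1, which encodes fibronectin, fell to 0.371 of its level. Of the TGF-beta genes, 6 rose and 2 fell of 12 in NPC-WT, and 2 rose and 3 fell of 10 in NPC E14 WT. The inhibitory Smad7 fell in all 5 lines. Of 10 corepressors, 2 rose in both, with 5 falling in NPC-WT and 0 in NPC E14 WT, and Ctbp2, which binds Zeb factors, fell to 0.391 of its level in NPC-WT but rose 1.65-fold in NPC E14 WT. Of 14 other EMT factors, 8 rose and 2 fell of 12 in NPC-WT, and 4 rose and 1 fell of 8 in NPC E14 WT. Id2, an inhibitor of helix-loop-helix factors, rose 10.5-fold and 14.8-fold.

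The question in the rescue lines was what changes when CTCF lacks ZF1. In ESCs, 1 of the 10 genes, Cdh3, fell (2.33% of all genes tested fell) and 0 rose (1.29%). Cdh3 was at 32.7 and 36.1 CPM in ESC-WT and at 17.6 and 18 CPM in ESC-ΔZF1, without overlap (log2 fold change -0.96 ± 0.15, adjusted p = 0.0154). The call was lost when any 1 of the 4 ESC libraries was left out, with adjusted p between 0.12 and 0.19. Epcam lay just short of the fold cutoff, at 42.6 and 41.1 CPM in ESC-WT and 28.9 and 30.3 CPM in ESC-ΔZF1 (adjusted p = 0.0381). Cdh1 overlapped between these groups, at 640.7 and 639.5 against 677 and 637 CPM, and the values of Vim, Snai1 and Zeb1 in ESC-ΔZF1 lay above those in ESC-WT by 0.13 to 0.44 on the log2 scale without passing the test.

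In NPCs, 5 of the 10 genes rose in ΔZF1, against 7.19% of all genes tested, and 2 fell, against 10.5%. The E- and P-cadherin genes were lower, and N-cadherin, vimentin and 3 of the 5 transcription factors were higher. Their median log2 fold change was 0.65, and that over all genes tested was 0.00. The median of chromosome 11 was -0.57 in this comparison, and none of the 10 genes lies there.

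Vim (chr2:13573927-13582826) stood out in size. It was at 166 and 184 CPM in NPC-WT and at 648 and 611 CPM in NPC-ΔZF1, 3.61-fold higher (log2 fold change 1.85 ± 0.11, adjusted p = 1.42e-05), and it ran from 1.78 to 1.92 when 1 library was left out. Cdh2 was at 22.5 and 14.9 CPM in NPC-WT and at 37.8 and 37.7 CPM in NPC-ΔZF1 (1.00 ± 0.22, adjusted p = 0.0127). Both groups were separate for each gene, although the NPC-WT libraries differed from each other in Cdh2 by more than those of NPC-ΔZF1. Zeb1 was at 7.88 and 6.1 CPM in NPC-WT and at 12.1 and 13.1 CPM in NPC-ΔZF1 (0.83 ± 0.16, adjusted p = 0.00646). Snai1 was at 5.51 and 4.47 CPM against 10.1 and 8.02 CPM (0.84 ± 0.21, adjusted p = 0.0207). Twist1 was at 2.84 and 4.47 CPM against 6.77 and 6.95 CPM (0.96 ± 0.28, adjusted p = 0.0366). Twist1 lost the call without NPC-WT replicate 1 (0.62, adjusted p = 0.055) and without either NPC-ΔZF1 library (0.97 and 0.93, adjusted p = 0.168 and 0.189), and Snai1 lost it without either NPC-ΔZF1 library (0.67 and 1.00, adjusted p = 0.196 and 0.0689). Zeb1 thus lay between its NPC-WT and ESC levels, while Snai1 and Twist1 were at their highest of the rescue lines. Zeb2 was at 21.9 and 12.6 CPM in NPC-WT and 25.4 and 23.5 CPM in NPC-ΔZF1 and did not pass (0.48 ± 0.22, adjusted p = 0.158). Without NPC-WT replicate 1 its log2 fold change was 0.95, but this leaves only the lower NPC-WT library, at 12.6 CPM, and no spread within that group. Snai2 (chr16:14705852-14709385) was at 1.57 and 1.2 CPM in NPC-WT against 1.41 and 2.02 CPM in NPC-ΔZF1, with overlap.

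The epithelial cadherins went the other way. Cdh1 was at 954 and 1000 CPM in NPC-WT and at 632 and 599 CPM in NPC-ΔZF1 (log2 fold change -0.67 ± 0.09, adjusted p = 0.00145), a level just below that of ESC-WT, 640.7 and 639.5 CPM. Cdh3 was at 38.1 and 49.1 CPM against 25.2 and 23.8 CPM (-0.83 ± 0.14, adjusted p = 0.00379), and in the order of levels NPC-WT, ESC-WT, NPC-ΔZF1 and ESC-ΔZF1 no neighbours overlapped. Epcam was at 110 and 101 CPM against 83.9 and 83.5 CPM, without overlap and below the fold cutoff (-0.34 ± 0.10, adjusted p = 0.0418). Without NPC-ΔZF1 replicate 1, 4 of the 10 genes passed, Cdh1, Cdh3, Vim and Zeb1, and without NPC-ΔZF1 replicate 2, 2 passed, Cdh1 and Vim. In these fits the remaining NPC-ΔZF1 library is taken to vary like the other groups. When the 4 NPC libraries were fitted alone, Cdh1, Cdh3, Cdh2 and Vim passed, and Snai1, Zeb1 and Twist1 had adjusted p from 0.061 to 0.083.

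The extraembryonic endoderm markers moved with these changes. All 12 rose in NPC-ΔZF1 against NPC-WT, and their summed level was 3293 to 3441 CPM against 389.7 to 396 CPM in NPC-WT. Gata6, an endoderm transcription factor, was at 78.9 ± 4.74 CPM against 9.2 ± 1.69, Sox17 at 47.2 ± 1.27 against 5.16 ± 1.1 and the laminin gene Lama1 at 1442 ± 45 against 182 ± 27.2 (SD, n = 2), while Ttr and Afp, below 1 CPM in NPC-WT, stood at 9.05 ± 0.159 and 4 ± 0.528 CPM in NPC-ΔZF1. The ΔZF1 effect on 8 of these 12 markers was larger in NPCs than in ESCs. Of the 7 surface ectoderm markers, 4 fell and 1 rose, and Krt8 fell to 0.292 of its level. Of the neural markers, 3 rose and 1 fell of 7 tested, with Sox1 at 19.4 ± 3.69 CPM in NPC-WT and 39.8 ± 0.896 in NPC-ΔZF1 and Nes at 0.557 of its level. Of 4 neural crest markers tested, 0 were dysregulated, and Tfap2b and Pax7 were below 1 CPM in both groups. Of 6 mesoderm markers tested, 2 rose and 1 fell, and Mesp1 and Msgn1 were at 0 or below 1 CPM. Of the 9 pluripotency markers, 2 fell. The part of these markers in the levels of Vim, Cdh2 and the cadherins was not tested.

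The ΔZF1 effect differed between NPCs and ESCs for 2 of the 10 genes, against 2.7% of all genes tested in either direction. The difference was 1.72 ± 0.15 on the log2 scale for Vim (adjusted p = 0.000777) and -0.70 ± 0.13 for Cdh1 (adjusted p = 0.0241). That of Cdh1 was lost when 1 of the 4 ESC libraries or of the 2 NPC-ΔZF1 libraries was left out. For Cdh2 the difference was 1.33 ± 0.37 (adjusted p = 0.0962), and it passed in DESeq2 (adjusted p = 0.0147) and with no filter on low counts. With 1 library left out, which leaves 1 in its group, the difference ran from 1.01 to 1.73 for Cdh2. It ran from 0.49 to 0.88 for Zeb1 and from 0.09 to 0.94 for Zeb2, neither of which passed in the full fit. Cdh3 differed by 0.13 ± 0.21, which did not pass (adjusted p = 0.775).

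**Figure D4:**
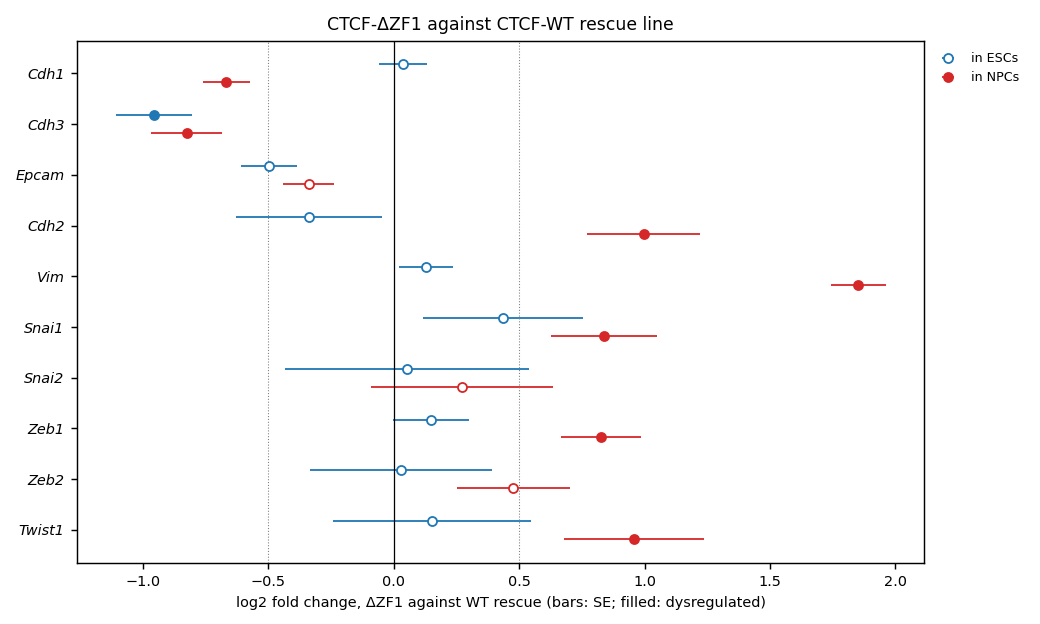
Log2 fold change of each gene in the ΔZF1 against the WT rescue line (horizontal axis, bars are SE) in ESCs and in NPCs, with filled points for dysregulated genes and dotted lines at 0.5 in either direction. In NPCs, Cdh1 and Cdh3 lie at -0.67 and -0.83 and Vim at 1.85, whereas in ESCs only Cdh3 is filled.

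Related genes in NPC-ΔZF1 did not all follow the 10. Of the other cadherins, 3 rose and 1 fell of 7 tested, with Cdh6 6.49-fold and Cdh4 2.15-fold higher and Cdh24 at 0.501 of its level. Of the catenins and scaffold genes, 0 of 12 were dysregulated in NPCs or in ESCs in edgeR. Of the tight junction and desmosome genes, 7 of 20 fell and 0 rose, with a median log2 fold change of -0.32 against 0.00 over all genes. One of them, Cldn7, lies on chromosome 11. Cldn4 fell to 0.42 and Pkp3, a desmosome plakophilin, to 0.377 of the NPC-WT level. Of the epithelial factors, 4 fell and 2 rose of 11, with Grhl3 at 0.449 and Grhl2 at 0.634 of their NPC-WT levels and Klf5 1.9-fold higher. Of the mesenchymal genes, 3 rose and 4 fell of 22, and the median was -0.12. Ncam1, a neural adhesion gene, was 2.41-fold higher, whereas Col1a2 was at 0.374 and Col1a1 at 0.326, the latter lying on chromosome 11. Tgfbr2 and Smad3, a receptor and a signal carrier of TGF-beta, fell to 0.634 and 0.638 and Skil, a Smad inhibitor, rose 1.53-fold, with 9 of the 12 TGF-beta genes not dysregulated. Of the other EMT factors, 3 rose and 1 fell of 12, with Msx1 3.32-fold higher and Msx2 at 0.51. Of the corepressors, Ctbp2 rose and Ajuba fell, and 8 of 10 were not dysregulated.

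In ESC-ΔZF1, where 1.29% of all genes tested rose and 2.33% fell, the changes in these lists lay mainly in 2 of them. The mesenchymal list had 4 genes up and 1 down of 22, with Acta2, smooth muscle actin, 2.15-fold higher, and the junction list had 2 up and 2 down of 20, with the desmosome gene Pkp2 at 0.374 of its level. Cdh4 rose 2.69-fold and Rbm47, an RNA binding regulator, fell to 0.652 of its level. In the TGF-beta, corepressor and other EMT factor lists, 0 genes were dysregulated in edgeR. Of all genes tested, 3019 had an unadjusted p under 0.05 in this comparison.

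In the truncation lines the question was what changes when the Podxl or Grb10 RNA is cut short. With Podxl pA, 0 of the 9 genes tested were dysregulated in ESCs (0.339% of all genes tested in either direction) and 0 in NPCs (0.55%) in edgeR, and the same held in DESeq2. At an unadjusted p under 0.05, Epcam (0.28 ± 0.11), Vim (0.40 ± 0.12) and Twist1 (0.80 ± 0.37) differed in ESCs and Zeb1 (-0.44 ± 0.18) in NPCs, with adjusted p of 0.18 to 0.518. Over all genes tested, 1220 had such a p in ESCs and 1350 in NPCs. In NPCs, Cdh2 was at 18.2, 19.2 and 19.7 CPM in Podxl pA and 18.4, 24 and 26.6 CPM in E14 WT, and Vim at 194, 182 and 211 against 137, 183 and 204 CPM, with overlap in both. The Podxl pA effect differed between NPCs and ESCs for 0 of the 9 in edgeR and in DESeq2 (0.098% of all genes in edgeR), with 0 of the 9 and 1355 of all genes at an unadjusted p under 0.05. Of the 8 related lists, 1 gene in all was dysregulated in Podxl pA, Rbm47, 1.48-fold higher in NPCs. The extraembryonic endoderm markers stood at 1468 to 1588 CPM in NPC Podxl pA against 724 to 979.9 CPM in NPC E14 WT, with 5 of 10 tested up, and Sox1 fell to 0.645 of its NPC E14 WT level.

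With Grb10 pA, 2 of the 9 genes fell in ESCs (4.58% of all genes tested fell) and 3 fell in NPCs (8.64%), and 0 rose in either (4.51% and 7.9%). Cdh1 fell in both cell types, at 587, 561 and 569.5 CPM in ESCs (log2 fold change -0.65 ± 0.07, adjusted p = 4.18e-07) and at 424, 486 and 433 CPM in NPCs (-0.73 ± 0.07, adjusted p = 3.05e-08), below every E14 WT library of the same cell type. Cdh3 was at 5.19, 7.94 and 6.87 CPM in ESC Grb10 pA against 16.8, 11.8 and 8.54 CPM in ESC E14 WT (-0.97 ± 0.23, adjusted p = 0.003725) and did not pass in NPCs (-0.29 ± 0.18). Without ESC E14 WT replicate 1, its highest library, Cdh3 had -0.70 and an adjusted p of 0.054. Both genes lie on chromosome 8, whose median over all genes was -0.49 in ESC Grb10 pA and -0.48 in NPC Grb10 pA, with the other chromosomes between -0.05 and 0.07. Relative to that median, Cdh1 had -0.17 in ESCs (adjusted p = 0.131) and -0.24 in NPCs (adjusted p = 0.0124), and Cdh3 -0.48 in ESCs (adjusted p = 0.172), none past the cutoffs. The value of Cdh3 in NPCs turned from -0.29 to 0.19 relative to that median and did not pass on either scale. Whether the lower Cdh1 and Cdh3 belong to the truncation or to the chromosome cannot be told apart.

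The other 2 genes that fell in NPC Grb10 pA lie elsewhere, and for them the truncation and the clone cannot be told apart. Cdh2 was at 9.9, 11 and 9.23 CPM, below the 18.4 to 26.6 CPM of NPC E14 WT (log2 fold change -1.21 ± 0.16, adjusted p = 2.22e-06). In ESC Grb10 pA it was at 1.73, 1.04 and 2.37 CPM on 3 to 10 counts, below ESC E14 WT at 3.05 to 3.49 CPM but not past the threshold (-0.88 ± 0.33, adjusted p = 0.08815). Vim was at 106, 124 and 119 CPM in NPC Grb10 pA (-0.59 ± 0.11, adjusted p = 0.000279) and lay above ESC E14 WT in ESC Grb10 pA, at 142, 185 and 143 CPM (0.33 ± 0.12, adjusted p = 0.0511). Vim was the gene, 1 of 9, whose Grb10 pA effect differed between NPCs and ESCs (-0.93 ± 0.16, adjusted p = 0.000747), against 5.9% of all genes tested. Without NPC E14 WT replicate 3, the NPC value was -0.48, below the fold cutoff. Zeb1 was at 16.4, 21.4 and 18.1 CPM in NPC Grb10 pA and 11.3 to 13.8 CPM in NPC E14 WT, without overlap and below the fold cutoff (0.49 ± 0.16, adjusted p = 0.0247), and Zeb2 was at 8.33, 8.97 and 13.5 against 13.9 to 16.2 CPM (-0.52 ± 0.20, adjusted p = 0.0525). Epcam was 0.30 ± 0.09 higher in NPCs (adjusted p = 0.0102), also below the fold cutoff.

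**Figure D5:**
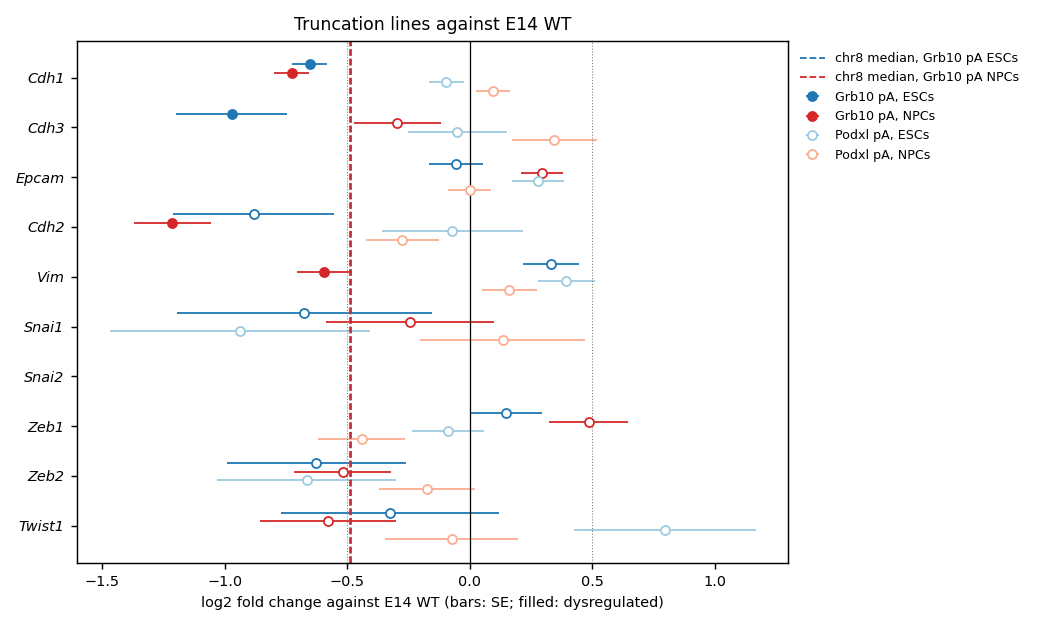
Log2 fold change of each of the 9 genes tested in Grb10 pA and Podxl pA against E14 WT in ESCs and NPCs (horizontal axis, bars are SE), with filled points for dysregulated genes. Dotted lines mark 0.5 in either direction, and dashed lines mark the median of chromosome 8 in Grb10 pA, -0.49 in ESCs and -0.48 in NPCs. No Podxl pA point is filled, and Cdh2 in NPC Grb10 pA, at -1.21, is the lowest filled point.

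Neural and other markers also changed in NPC Grb10 pA, in both directions. Sox1 was at 25.6 ± 4.3 CPM against 79.3 ± 4.87 in NPC E14 WT (SD, n = 3). It too lies on chromosome 8, whose median log2 fold change was -0.48 in this comparison. Nes, which encodes nestin, fell to 0.378 of its level. Of the neural markers, 1 rose and 3 fell of 6 tested. Of the 9 pluripotency markers, 3 rose and 2 fell. Nanog and Esrrb were 1.58-fold and 1.97-fold higher, whereas Klf2 was at 10.55 CPM against 30.4 CPM in NPC E14 WT. The extraembryonic endoderm markers stood at 602 to 773 CPM against 724 to 979.9 CPM, with 3 of 10 tested down, Gata6 among them at 0.543 of its level. Of the other markers tested, 1 of 5 for surface ectoderm rose, 2 of 4 for mesoderm rose and 1 fell, and 1 of 2 for neural crest rose and 1 fell. The part of these markers was not tested. Of the related lists, 5 of 9 epithelial factors fell and 0 rose in NPC Grb10 pA, with Esrp2, Grhl3 and Esrp1 at 0.4685, 0.502 and 0.631 of their E14 WT levels, Esrp2 lying on chromosome 8. Of the junction genes, 4 fell and 2 rose of 20, with Perp at 0.509 and Cldn3 1.77-fold higher. Of the mesenchymal genes, 4 fell and 2 rose of 17, with Pdgfrb, a growth factor receptor, 2.32-fold higher. Of the TGF-beta genes, 0 of 10 were dysregulated, of the corepressors Ctbp2 fell, and of the 8 other EMT factors tested 1 rose and 2 fell, of the 12 catenins and scaffold genes 2 fell, and of 5 other cadherins 1 fell. In ESC Grb10 pA, the lists held from 0 to 4 dysregulated genes each, among them Itgb1, an integrin on chromosome 8, at 0.542 and Rbm47 at 2.36-fold of the ESC E14 WT level.

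The genes with patterns most like Cdh1 and Cdh2 were described over 7413 genes, by the smaller of their Pearson correlations with log2(CPM + 1) over the 8 rescue libraries and over the 18 truncation libraries, which fall into ESC and NPC clusters. For Cdh1 they were Eps15l1 (0.938 and 0.946), Terf2 (0.874 and 0.929) and Sh3rf1 (0.8695 and 0.9). All 3 lie on chromosome 8, as does Cdh1, and share its lower median in Grb10 pA. For Cdh2 they were Med14 (0.967 and 0.97), Sec24d (0.96 and 0.963) and Ccnd2 (0.96 and 0.979), on chromosomes X, 3 and 6.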

How the data were processed

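Total RNA depleted of rRNA was sequenced from 26 libraries in 10 groups. Reads were mapped to mm10 with STAR and counted per gene with featureCounts without strand by the authors, who deposited raw counts in 2 tables; the annotation used for counting is not given in the sources used here. Columns were matched to samples by name, and 3 columns matched no sample and were not used. Each table was fitted alone in R 4.3.3 with edgeR 4.0.16 (filterByExpr, TMM scaling, group means, quasi-likelihood F test, Benjamini-Hochberg adjustment over 16641 and 13268 genes), with dysregulation taken as an adjusted p no higher than 0.05 with a log2 fold change whose size was 0.5 or more. The SE is the log2 fold change divided by the root of F. The fits were tested on simulated data, where 98.5% (ESC-ΔZF1 against ESC-WT, 16641 genes) and 99.5% (NPC against ESC E14 WT, 13268 genes) of 200 genes changed by 1.5 on the log2 scale were found. Of the calls made there, 5.29% and 5.69% were false. The changed genes were drawn from those expected to have more than 50 counts. These figures therefore do not cover smaller changes or the low factors of the truncation lines. DESeq2 1.42.0, other scalings, filters, thresholds and library subsets served as alternatives. Lengths and positions came from GRCm38, where 96.4% of the 55291 symbols were found. All 10 genes were named in every comparison, with up to 4 dysregulated genes per related list, those of largest fold change among genes averaging 50 or more normalized counts. Of the genes that this rule names, 1 is not reported here. Marker genes were given as values. The genes and lists were chosen with earlier results of these data known.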

Additional observations from a re-analysis of the deposited data

Results flagged for a closer look

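A difference in an effect between NPCs and ESCs, by the test of the difference itself, was found for 3 results. The effect of ΔZF1 on Cdh1 differed by -0.70 ± 0.13 on the log2 scale (NPC effect minus ESC effect, edgeR adjusted p = 0.0241), and that on Vim by 1.72 ± 0.15 (adjusted p = 0.000777). The effect of Grb10 pA on Vim differed by -0.93 ± 0.16 (adjusted p = 0.000747).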

How the results depend on the processing

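No gene past the threshold changed direction under any alternative. Values short of the threshold in both fits were not compared for direction, and some changed it. Cdh3 in NPC Grb10 pA, for example, turned to 0.19 with the median of chromosome 8 in the offsets. Of the fitted values per gene, 1012 kept their side of the threshold under alternatives other than leaving out a library, 25 lost the call and 15 gained it. With 1 library left out, these numbers were 791, 33 and 10. The count of dysregulated genes among the 10 moved as follows, and the cause was not tested where the alternative's construction does not give it. In ESC-ΔZF1 (1 gene), it was 0 at an adjusted p of at most 0.01, 2 with no minimum fold change and 0 to 0 with 1 library left out. In NPC-ΔZF1 (7 genes), it was 4 when only the libraries of the groups compared were fitted, 4 at an adjusted p of at most 0.01 and 2 to 7 with 1 library left out, and DESeq2 gave 5, without Snai1 (adjusted p = 0.0523) and Twist1 (adjusted p = 0.0735). For the difference of the ΔZF1 effect (2 genes), it was 1 at an adjusted p of at most 0.01. With 1 library left out, its group held 1 library, and the call of Cdh1 was lost in the fits named above. With at least 10 counts required in every library, it was 3 in place of 7 for NPCs against ESCs in both Podxl pA and Grb10 pA, since Cdh2, Snai1, Zeb2 and Twist1 were no longer tested. In ESC Grb10 pA (2 genes), it was 0 with the median of chromosome 8 in the offsets and 1 to 2 with 1 library left out, and in NPC Grb10 pA (3 genes) it was 5 with no minimum fold change.

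The replicate numbers did not pair the samples: same-numbered deviations correlated between -0.17 and 0.20, and in no comparison with 3 pairs were all correlations above 0.1. In NPC Grb10 pA against E14 WT, every sample correlated best with its own number. With the replicate block, the count was 6 in place of 7 in NPC-ΔZF1 against NPC-WT, in NPC-WT against ESC-WT and in NPC against ESC Podxl pA, each without Twist1, 5 in place of 6 in NPC against ESC E14 WT, without Vim, and it did not move in the other comparisons. The ratio of Zeb2 to Zeb1 and its value as a ratio of counts were chosen after seeing the data. As ratios of counts, the ratio in NPC-WT was 242.5% in place of 125%. The lower depth of the truncation libraries, 1907505 to 8845087 counts, limits Snai1, Snai2 and Twist1 there.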
